A study of Mus musculus with 6 samples.

Results

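Semaphorins, plexins and neuropilins form 1 ligand and receptor system, and all of its genes that the array could name were followed here in mouse ovarian granulosa cells. The members were chosen by symbol, as genes named Sema with a digit, Plxna to Plxnd, Nrp1 or Nrp2, with no measured value in the rule. This gave 32 genes of the 18193 named genes measured: 20 semaphorins, 2 neuropilins, 9 plexins that encode protein and the antisense RNA Plxna4os1, whose symbol also meets the rule. They were covered by 79 probe sets, and each gene was read on its brightest probe set. Granulosa cells are the somatic cells that line the ovarian follicle and nourish the oocyte. RNA from them was measured on 6 Affymetrix arrays, 2 in each of 3 groups. The first group was wild type at day 25 of age. The second was a double knockout at day 25, and the third was the same knockout at 2 months; its genotype was Foxo1 f/- with Foxo3 f/- and Amhr2-cre, written dKO below. Foxo1 and Foxo3 encode forkhead transcription factors, and Amhr2 is a receptor gene whose Cre allele acts in granulosa cells and other somatic cells of the gonad. All groups shared a mixed FVB and C57BL/6 background. Wild-type cells at 2 months were not analysed here, and no group carries Amhr2-cre alone, so an effect of the Cre allele cannot be told apart from the loss of the FOXO genes.

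Semaphorins are ligands that share an extracellular sema domain, and plexins are their main receptors. Class 3 semaphorins are secreted and mostly need a neuropilin, which holds the ligand while a plexin signals; classes 4, 5 and 6 span the membrane, and class 7 is held on it by a lipid anchor. Inside the cell, plexins act on small GTPases and through them on integrins and the actin skeleton. The system was first known from the guidance of growing axons, and it also shapes blood vessels, bone and immune responses. Neuropilins bind VEGF as well, so they are prominent in endothelial cells, which surround follicles but lie outside the granulosa layer.

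The promoters of 5 members that the results turn on are shown for context, since the knockout removes transcription factors; they were taken from the members with a single start in the table used and an unadjusted p under 0.05 in at least 1 comparison. Each line gives the 250 bases before the start on the gene's own strand, from RefSeq for GRCm38.p6, with motif matches in capitals. Nrp1 lies on the plus strand at chr8:128358823-128359072, Nrp2 on the plus strand at chr1:62703067-62703316 and Plxna2 on the plus strand at chr1:194619579-194619828. Plxnc1 lies on the minus strand at chr10:94944846-94945095 and Sema7a on the plus strand at chr9:57939862-57940111.
Nrp1: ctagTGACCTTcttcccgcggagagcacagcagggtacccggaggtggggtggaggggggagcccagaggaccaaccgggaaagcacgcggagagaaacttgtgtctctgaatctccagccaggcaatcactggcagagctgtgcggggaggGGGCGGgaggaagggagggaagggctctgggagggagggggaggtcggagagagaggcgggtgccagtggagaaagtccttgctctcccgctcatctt
Nrp2: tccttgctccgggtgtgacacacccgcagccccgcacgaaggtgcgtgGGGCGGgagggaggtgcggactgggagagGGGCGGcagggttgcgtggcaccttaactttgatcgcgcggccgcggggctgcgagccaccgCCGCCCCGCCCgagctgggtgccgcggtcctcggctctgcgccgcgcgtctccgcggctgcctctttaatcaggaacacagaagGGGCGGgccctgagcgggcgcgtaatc
Plxna2: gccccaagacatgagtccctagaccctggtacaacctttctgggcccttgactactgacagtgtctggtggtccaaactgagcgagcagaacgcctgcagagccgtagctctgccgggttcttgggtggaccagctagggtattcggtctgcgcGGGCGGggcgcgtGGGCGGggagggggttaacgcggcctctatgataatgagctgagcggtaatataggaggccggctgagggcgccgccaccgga
Plxnc1: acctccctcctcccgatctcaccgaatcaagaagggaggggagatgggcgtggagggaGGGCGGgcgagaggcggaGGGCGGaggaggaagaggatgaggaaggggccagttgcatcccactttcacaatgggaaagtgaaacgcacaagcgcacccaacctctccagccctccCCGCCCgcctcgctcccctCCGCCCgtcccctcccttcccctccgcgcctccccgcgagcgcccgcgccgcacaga
Sema7a: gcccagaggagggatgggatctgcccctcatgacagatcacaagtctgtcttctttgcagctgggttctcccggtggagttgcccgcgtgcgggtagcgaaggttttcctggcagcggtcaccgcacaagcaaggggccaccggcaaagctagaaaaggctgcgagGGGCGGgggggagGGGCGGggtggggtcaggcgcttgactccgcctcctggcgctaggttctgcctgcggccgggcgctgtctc
Promoter windows of 300 bases, reaching 50 bases past the start, were found for 26 of the 32 members, with 37 starts in all. On either strand, 5 motifs were searched: TGTTTAC, the forkhead site bound by FOXO factors; TGTTTTG, the core of insulin response elements; AAGGTCA, the site of the nuclear receptors NR5A1 and NR5A2; TGACGTCA, the cyclic AMP response element; and GGGCGG, the GC box. TGTTTAC was in 0 of the 37 windows and in 3.65% of all 32851 windows, and TGTTTTG was in 0 of 37 and in 6.28%. AAGGTCA was in 3 windows, those of Nrp1, Sema4b and Sema5a, and in 4.72% of all. TGACGTCA was in 0 member windows and in 1.79% of all. GGGCGG was in 27 of the 37 member windows, against 35.7% of all. This share was not adjusted for base content. Over the 250 bases before the start, the median content of G and C was 52.4% in all windows. It was 62.8% to 72.4% in the 5 sequences printed, and among the members it went down to 40.8%, in Sema3a. In the sequences printed, the capitals near the left end of Nrp1 are AAGGTCA on the opposite strand and all the others are GC boxes, a pair of which overlap in Nrp2. These are matches of letters, not measured binding, and absence of a match says nothing about FOXO binding elsewhere.

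The arrays were alike in distribution, with a median intensity of 73 or 74. The array of dKO 2-month replicate 1 stood apart, correlating with the other arrays at r between 0.964 and 0.979, while those 5 correlated with each other at r between 0.982 and 0.993. Of the targeted genes, Foxo1 had intensities of 10319 and 7666 in wild type, 904 and 2291 in the dKO at day 25 and 126 and 343 at 2 months. Foxo3 had 1632 and 1342, then 2539 and 3279, then 2484 and 1872, and which part of the gene its probe set reads is not given in the sources used here. Granulosa identity was clear on every array: Foxl2, Inha, Fshr and Amhr2 were all measured between 993 and 27499. Markers of cells other than granulosa cells also varied. The summed intensity of 14 endothelial markers was 1796 and 1975 in wild type, 1909 and 2718 in the dKO at day 25, and 5107 and 3273 at 2 months. For 16 oocyte markers the sums were 38898 and 23457, then 53886 and 78327, then 9174 and 43509, and for 19 leukocyte markers 2397 and 4762, then 10591 and 6206, then 23652 and 7646. Sums of 16 stromal and smooth muscle markers were 26501 and 18646, then 32081 and 39476, then 52506 and 29321. The sums of 8 theca markers were 6938 and 6168, then 4474 and 11943, then 23573 and 24833, so both 2-month arrays were above the other 4. Most of the 2-month sums came from Cyp17a1, at 12804 and 15028, and Cyp11a1, at 6064 and 5803. Star and Lhx9 were higher at 2 months without overlap, while Ptch1, Gli1, Hhip and Nr2f2 overlapped between 2 months and wild type. Both 2-month arrays were also the highest for Nrp1, Plxnd1 and Sema7a, and the part of theca cells in those values was not tested. In RNA from a cell mixture, a change in the number of cells of a type and a change in RNA per cell cannot be told apart.

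Between the genotypes at day 25, the largest differences among the members were in receptors. Plxna2, Nrp1 and Nrp2 were over 2-fold higher in the dKO, and Plxna4 was 1.91-fold higher. Next came the ligand Sema4b, 1.75-fold higher, the receptor Plxnc1, 1.65-fold higher, and the ligand Sema3g, 1.62-fold higher. Of the lower ligands, Sema4g was 1.61-fold lower and Sema4d 1.35-fold lower. In limma, an unadjusted p under 0.05 was reached by 3 members with higher values (Plxna2, Plxnc1 and Nrp1) and 1 with lower values (Sema4d), where 4.89% of all genes were higher and 3.44% lower. After Benjamini-Hochberg adjustment over all probe sets 0 members passed, as did 0% of genes, and the smallest adjusted p of a member was 0.498. Groups did not overlap for 14 members higher in the dKO and 3 lower, against 26.4% and 19.5% of all genes, and by 2-fold or more this held for 3 higher and 0 lower, against 2.71% and 0.687%. The median log2 difference of the members was 0.13, against 0.03 over all genes. A difference in log2 intensity is called a log2 difference here, and each carries the standard error of the limma fit. Without wild-type replicate 1 or 2, 1 member was left at an unadjusted p under 0.05 in each case, and without dKO day 25 replicate 1 there were 2.

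**Figure D1:**
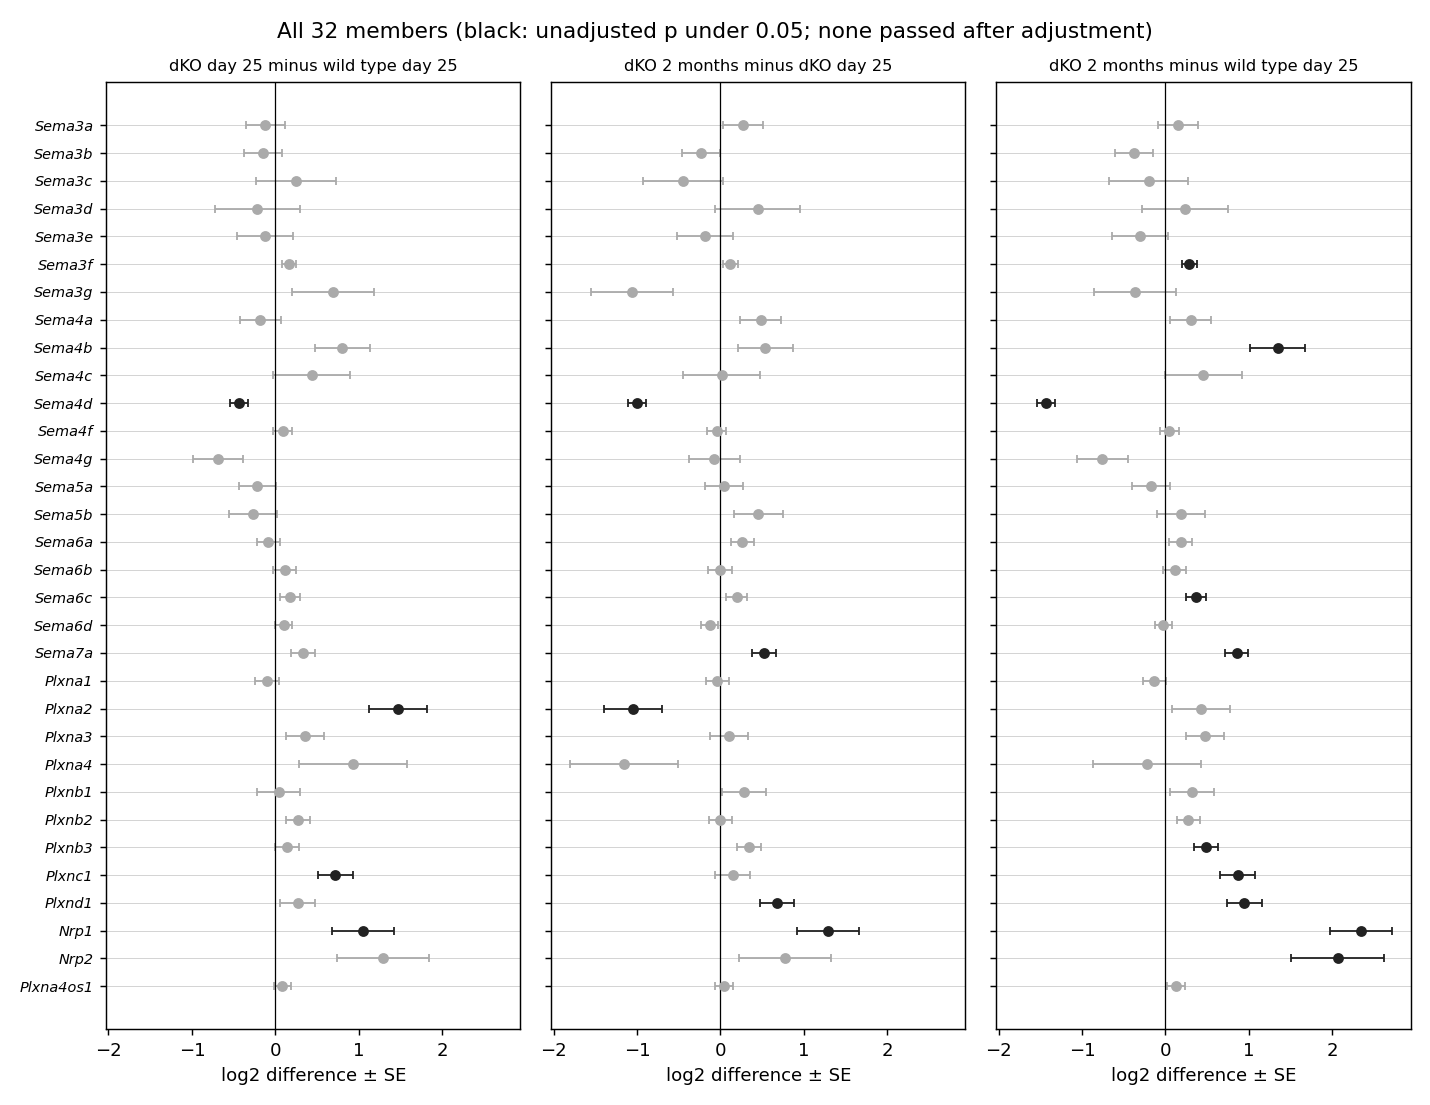
Log2 difference with standard error for each of the 32 members (rows, ligands above, receptors below) in the 3 comparisons (panels, shared axis); black points have an unadjusted p under 0.05 in limma and grey points do not. The neuropilins lie farthest to the right and Sema4d farthest to the left in the comparison of dKO at 2 months with wild type, with log2 differences of 2.34, 2.06 and -1.43.

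Between day 25 and 2 months in the dKO, Sema4d was 2.00-fold lower and Plxna2 was 2.07-fold lower, while Nrp1 was 2.44-fold, Plxnd1 1.60-fold and Sema7a 1.43-fold higher at the older age. These were the 3 higher and 2 lower members at an unadjusted p under 0.05 by limma, against 3.73% and 2.91% of all genes. Again 0 members and 0% of genes passed after adjustment, with a smallest adjusted p of 0.712. Groups did not overlap for 8 members higher and 5 lower at 2 months, against 19.7% and 17% of all genes, and by 2-fold or more for 1 higher (Nrp1) and 3 lower (Plxna2, Plxna4 and Sema3g), against 1.02% and 2.87%. The median log2 difference was 0.08, against 0.02 over all genes. This comparison turned on dKO 2-month replicate 1. Without it the median was -0.06 and 2 members had an unadjusted p under 0.05, whereas leaving out replicate 2 instead gave a median of 0.31 and 12 members. There were 2 such members without dKO day 25 replicate 1 and 3 without either wild-type array, which enters only through the pooled spread.

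Against wild type at day 25, the dKO at 2 months differed in both genotype and age, which cannot be told apart in this comparison. It had the widest differences: Nrp1 was 5.06-fold, Nrp2 4.18-fold and Sema4b 2.54-fold higher, and Sema4d 2.70-fold lower. In limma, an unadjusted p under 0.05 was reached by 9 members with higher values and 1 with lower values, against 9.54% and 5.38% of all genes, and 0 members and 0% of genes passed after adjustment. The higher ones were Nrp1, Nrp2, Plxnb3, Plxnc1, Plxnd1, Sema3f, Sema4b, Sema6c and Sema7a, and the lower one was Sema4d, with an adjusted p of 0.123. Groups did not overlap for 12 members higher and 3 lower, against 26.6% and 17.3% of all genes, and by 2-fold or more for 3 higher and 1 lower, against 3.49% and 1.35%. The median log2 difference was 0.21, against 0.04 over all genes, and without dKO 2-month replicate 2 it was 0.33. Without wild-type replicate 1 only 4 members had an unadjusted p under 0.05. The comparisons share groups, so they are not independent of each other.

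Ordered from wild type through the dKO at day 25 to the dKO at 2 months, 5 members had higher values in each group than in the one before with no overlap, against 4.22% of all genes. They were Nrp1, Plxnb3, Sema3f, Sema6c and Sema7a, each on its brightest probe set. Sema4d alone among the members ran the other way with no overlap, against 2.23% of all genes. 2 arrays against 2 give an exact permutation p no smaller than 0.333.

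The neuropilins are the co-receptors that hold secreted semaphorins and VEGF. Nrp1 had intensities of 490 and 370 in wild type, 689 and 1137 in the dKO at day 25, and 2814 and 1659 at 2 months. Every dKO array lay above both wild-type arrays, and both 2-month arrays lay above both day 25 arrays. Its log2 difference from wild type was 1.05 ± 0.37 at day 25 (limma, adjusted p = 0.587) and 2.34 ± 0.37 at 2 months (adjusted p = 0.192), and between the dKO ages it was 1.29 ± 0.37 (adjusted p = 0.712). All 3 other Nrp1 probe sets differed in the same direction in each comparison, with log2 differences from 0.56 to 0.90 at day 25 and from 1.10 to 2.29 for 2 months against wild type. Nrp2 had 196 and 215 in wild type, 459 and 552 in the dKO at day 25, and 1539 and 482 at 2 months. Both day 25 dKO arrays were above 2 times each wild-type array, while at 2 months replicate 1 stood far above replicate 2, which lay within the day 25 range. The log2 difference of Nrp2 was 1.29 ± 0.55 at day 25 (limma, adjusted p = 0.637) and 2.06 ± 0.55 for 2 months against wild type (adjusted p = 0.302), or 1.23 without dKO 2-month replicate 1. The 3 other Nrp2 probe sets again had the same direction throughout.

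Endothelial markers, like the neuropilins, mostly had higher group means in the dKO, but the match array by array depended on the gene and on how the markers were summarised. The endothelial sum on dKO day 25 replicate 1 was 1909, below the 1975 of wild-type replicate 2. The marker Sox18 had 426 and 592 on those arrays. By the median log2 deviation of the 14 markers, that dKO array was at -0.307, above wild-type replicates 1 and 2 at -0.781 and -0.371. Both neuropilins on that dKO array lay above both wild-type arrays. Nrp2 was lower on dKO 2-month replicate 2 than on dKO day 25 replicate 2, 482 against 552, with sums of 3273 and 2718. At day 25, 13 of 14 endothelial markers had a higher mean in the dKO, with a median log2 difference of 0.44, and at 2 months 14 of 14 did against wild type, with a median of 1.37. Intensity differed between the markers. Pecam1 was dim, at 30 and 30 in wild type, 32 and 36 in the dKO at day 25 and 86 and 45 at 2 months. Cdh5 had 82 and 81, then 142 and 167, then 318 and 177. Esam was brighter, at 184 and 246, then 204 and 319, then 894 and 349. Leukocyte and stromal sums were above both wild-type arrays on all 4 dKO arrays. The part of these cells in the neuropilin values was not tested.

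**Figure D2:**
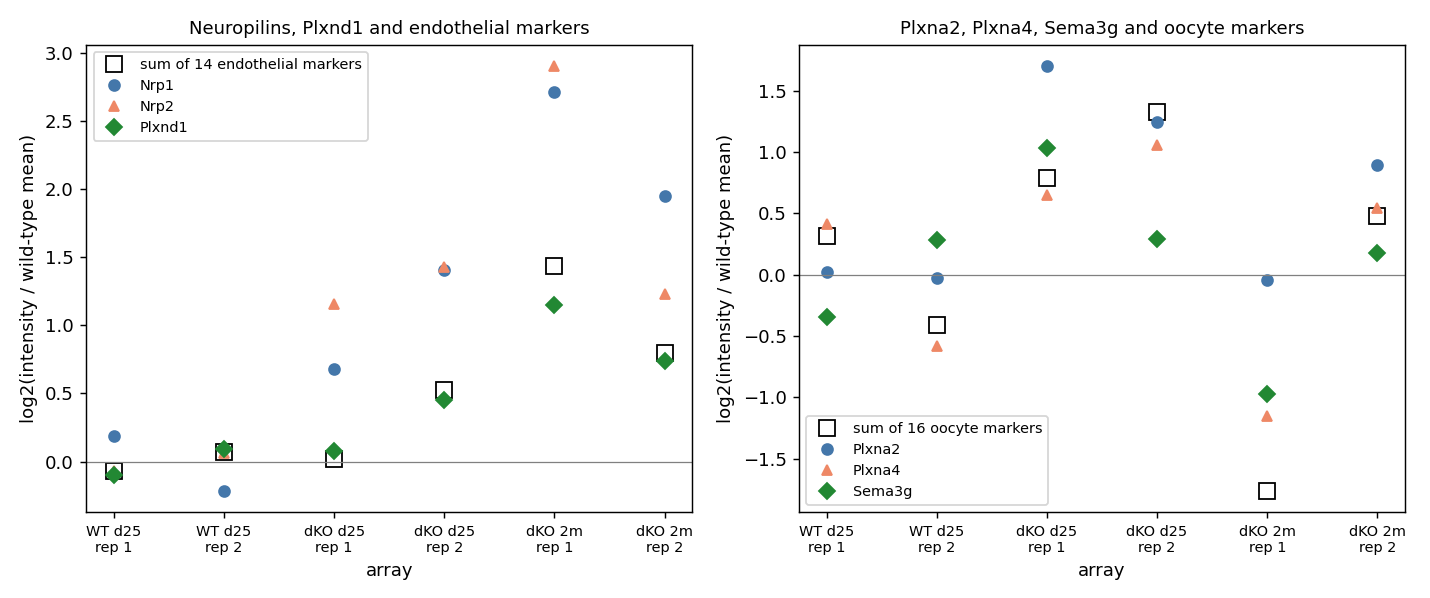
Log2 of the intensity relative to the wild-type mean on each of the 6 arrays, for neuropilins and Plxnd1 beside the sum of 14 endothelial markers (left) and for Plxna2, Plxna4 and Sema3g beside the sum of 16 oocyte markers (right). Both sets are highest on dKO 2-month replicate 1 on the left, and on the right that array has the lowest oocyte sum, 9174, and the lowest Plxna4 value, 82.

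The plexin-A receptors signal for class 3 semaphorins together with neuropilins and bind class 6 semaphorins directly. Plxna2 had 480 and 465 in wild type, 1539 and 1120 in the dKO at day 25, and 458 and 878 at 2 months. Both day 25 dKO arrays lay above all other arrays, and at 2 months replicate 1 was at the wild-type level. The log2 difference was 1.47 ± 0.35 at day 25 (limma, adjusted p = 0.498) and -1.05 ± 0.35 between the dKO ages (adjusted p = 0.712), or -0.58 without dKO 2-month replicate 1. Its 3 other probe sets had the same direction, with log2 differences from 0.81 to 1.17 at day 25 and from -0.96 to -0.79 between the ages.

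Plxna4 had 243 and 122 in wild type, 286 and 381 in the dKO at day 25, and 82 and 266 at 2 months. The dKO arrays at day 25 lay above both wild-type arrays and both 2-month arrays, with a log2 difference of -1.15 ± 0.65 between the ages (limma, adjusted p = 0.713), or -0.31 without dKO 2-month replicate 1, and its second probe set ranged from 101 to 116, with the opposite sign in all 3 comparisons. Oocyte marker sums followed a like order, highest on the dKO arrays at day 25 and lowest on dKO 2-month replicate 1, and 16 of 16 oocyte markers had a higher mean in the dKO at day 25. Their part in the Plxna2 and Plxna4 values was not tested. Plxna1 ranged from 602 to 742 with overlapping groups. Plxna3 had 329 and 407, then 543 and 408, then 584 and 440, so each dKO array was above both wild-type arrays, at the closest 408 against 407. The group difference from wild type was 1.29-fold at day 25 and 1.38-fold at 2 months. Its second probe set had 71 and 85 in wild type and 106 and 84 in the dKO at day 25, which overlap. Neither Plxna1 nor Plxna3 reached an unadjusted p under 0.05 in any comparison. Plxna4os1, transcribed opposite Plxna4, stayed between 15 and 17.

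Plexin-B receptors bind class 4 semaphorins and signal through exchange factors of small GTPases. Plxnb2, the brightest probe set of the group, had 3198 and 3399 in wild type, 4428 and 3588 in the dKO at day 25 and 4171 and 3815 at 2 months. All 4 dKO arrays were above both wild-type arrays, and the group difference was 1.21-fold at each age. Plxnb3, a receptor for Sema5a, had 100 and 107, then 116 and 113, then 164 and 129. Its groups did not overlap in any comparison, and the log2 difference of 2 months from wild type was 0.49 ± 0.14 (limma, adjusted p = 0.325), or 0.32 without dKO 2-month replicate 1. By its suffix this Plxnb3 probe set may cross-hybridise. The other, dimmer Plxnb3 probe set had 30 and 40, then 37 and 39, then 45 and 41, so the genotypes overlapped at day 25. Plxnb1, a receptor of Sema4d, lay between 536 and 613 on 5 arrays and at 926 on dKO 2-month replicate 1.

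Plxnc1 and Plxnd1 are the single members of their classes. Plxnc1 is the plexin that binds Sema7a, and it had 5200 and 6281 in wild type, 10118 and 8776 in the dKO at day 25, and 12373 and 8784 at 2 months. All dKO arrays were above both wild-type arrays and the dKO ages overlapped. By Plxnc1 too the 6 arrays stood in the order of the leukocyte marker sums, and the part of leukocytes in it was not tested. The log2 difference from wild type was 0.72 ± 0.21 at day 25 (limma, adjusted p = 0.555) and 0.87 ± 0.21 at 2 months (adjusted p = 0.279). Of its 5 other probe sets, 4 had the same direction at day 25 and 5 at 2 months, and with all 6 averaged the day 25 difference was 0.33.

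Plxnd1, which binds Sema3e without a neuropilin and is known from vessel patterning, had 239 and 272 in wild type, 270 and 350 in the dKO at day 25, and 567 and 427 at 2 months. Its level at 2 months was above every other array, with log2 differences of 0.95 ± 0.21 from wild type (limma, adjusted p = 0.259) and 0.68 ± 0.21 from the dKO at day 25 (adjusted p = 0.712), or 0.47 without dKO 2-month replicate 1. The order of the 6 arrays by Plxnd1 was also their order by the summed endothelial markers. That match was close between dKO day 25 replicate 1 and wild-type replicate 2, with Plxnd1 at 270 and 272 and sums of 1909 and 1975. Sox18 alone, 1 of the 14 markers, had 426 and 592 on those arrays. The part of endothelial cells in it was not tested.

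**Figure D3:**
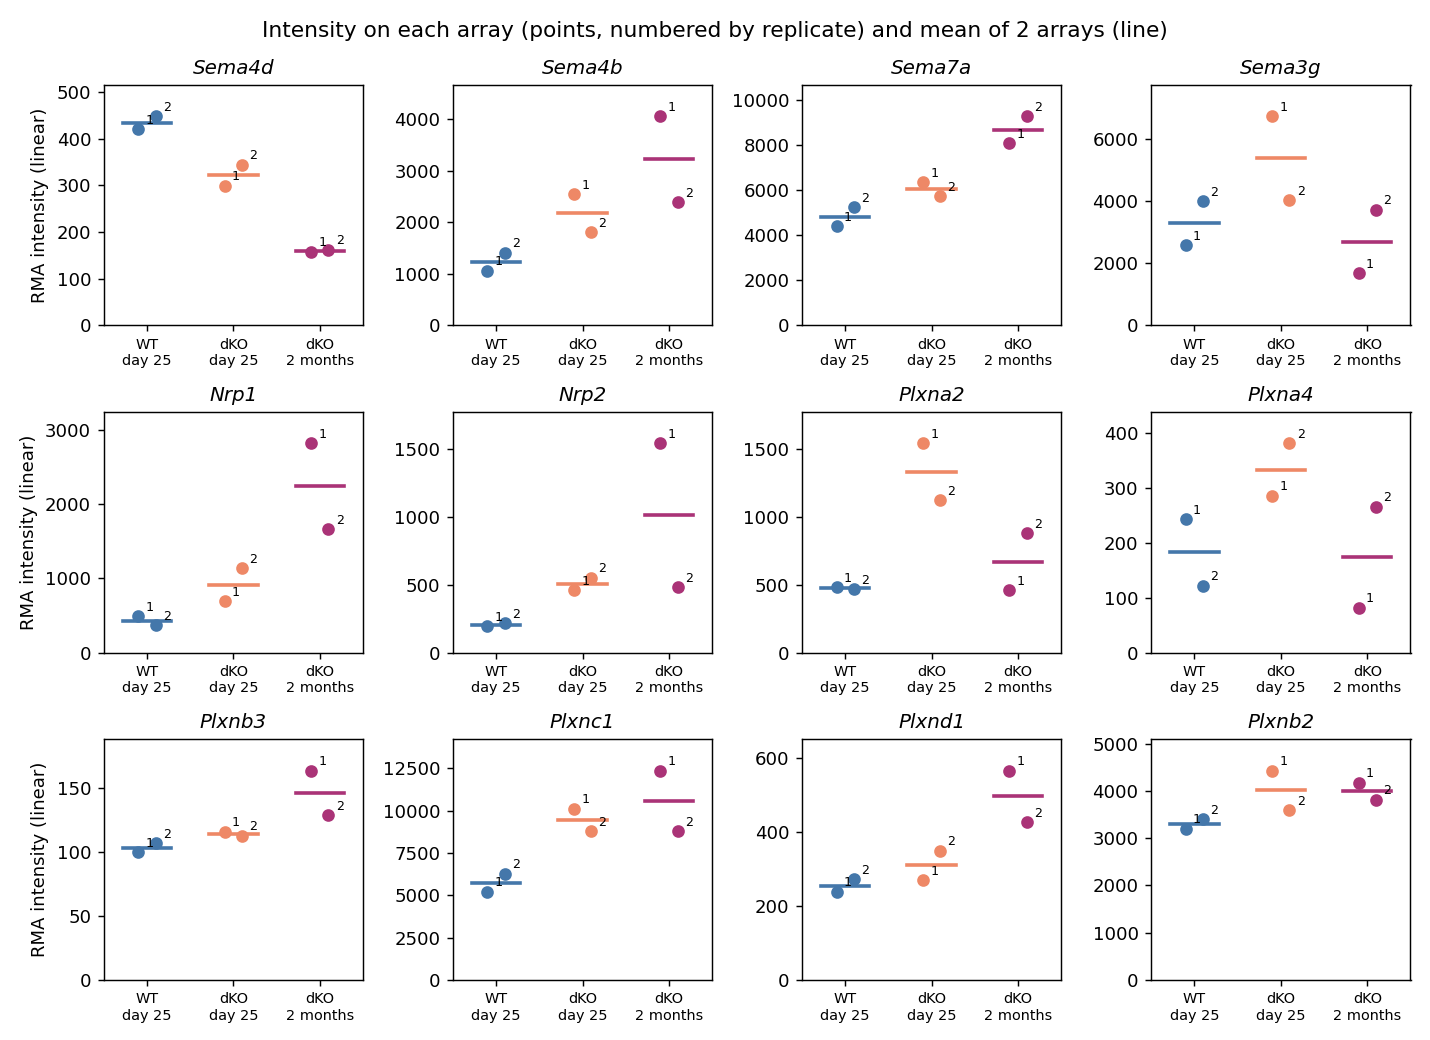
Intensity on a linear scale from 0 for 12 members on each array, with points numbered by replicate and a line at the mean of the 2 arrays of each group. The Sema4d means are 434, 321.5 and 160 with close replicates, Sema7a and Nrp1 are higher in each group than in the one before, and Nrp2 at 2 months rests on replicate 1 at 1539 against 482.

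Among the ligands, class 4 semaphorins differed in both directions. Sema4d, a membrane ligand that can be shed and that acts through plexin-B1 and, on immune cells, CD72, had 420 and 448 in wild type, 299 and 344 in the dKO at day 25, and 158 and 162 at 2 months. The 3 groups did not overlap and their replicates were close, with means of 434 ± 19.8, 321.5 ± 31.8 and 160 ± 2.83 (SD, n = 2). The log2 difference from wild type was -0.43 ± 0.11 at day 25 (limma, adjusted p = 0.515) and -1.43 ± 0.11 at 2 months (adjusted p = 0.123), and between the dKO ages it was -0.999 ± 0.11 (adjusted p = 0.712). At 2 months against wild type this adjusted p equalled the smallest of any gene. Of its 2 other probe sets, that at 22 to 31 had the same direction in each comparison, with log2 differences of -0.15, -0.27 and -0.12 in the same sequence, and that at 59 to 83 had the opposite direction. Averaged over all 3 probe sets, the log2 difference of 2 months from wild type was -0.49. Oocyte markers had lower means at 2 months than in the dKO at day 25 for 16 of 16 (median log2 difference -1.84), and higher means in the dKO at day 25 than in wild type for 16 of 16 (median 1.06). For 2 months against wild type 14 of 16 had lower means (median -0.71). Their part in the Sema4d values was not tested.

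Sema4b had the opposite course, with 1064 and 1412 in wild type, 2543 and 1805 in the dKO at day 25, and 4052 and 2392 at 2 months. Each dKO array was above both wild-type arrays, and the dKO ages overlapped. The order of the 6 arrays by Sema4b was their order by the summed leukocyte markers, whose part in it was not tested. Its log2 difference was 0.81 ± 0.33 at day 25 (limma, adjusted p = 0.629) and 1.34 ± 0.33 for 2 months against wild type (adjusted p = 0.281), or 0.96 without dKO 2-month replicate 1. The second, dimmer Sema4b probe set had 45 and 68, then 68 and 63, then 101 and 73. It overlapped between the genotypes at day 25, with a log2 difference of 0.24, and did not for 2 months against wild type, at 0.62. Sema4g was lower in both dKO groups, with 242 and 169 in wild type, 104 and 151 at day 25 and 143 and 99 at 2 months, and did not reach an unadjusted p under 0.05. Sema4a, Sema4c and Sema4f overlapped between wild type and each dKO group; Sema4c, a ligand of plexin-B2, ranged from 589 to 1486 with wide replicates.

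Sema7a, the class 7 ligand that binds Plxnc1 and beta-1 integrin, had 4389 and 5223 in wild type, 6339 and 5725 in the dKO at day 25, and 8074 and 9261 at 2 months. The groups did not overlap in any comparison, and the higher 2-month value was on replicate 2. Its log2 difference from wild type was 0.33 ± 0.14 at day 25 (limma, adjusted p = 0.638) and 0.85 ± 0.14 at 2 months (adjusted p = 0.203), or 0.95 without dKO 2-month replicate 1. Between the dKO ages it was 0.52 ± 0.14 (adjusted p = 0.712). Its second, dimmer probe set ran from 154 to 239 in wild type, 182 to 194 in the dKO at day 25 and 289 to 327 at 2 months, so it showed the 2-month difference but not the day 25 one. On their brightest probe sets, the ligand Sema7a and its receptor Plxnc1 both had their lowest values in wild type.

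Of the 7 secreted class 3 ligands, 3 had a higher and 4 a lower mean in the dKO at day 25, and 0 reached an unadjusted p under 0.05 there. Sema3g, the brightest of the class and known from vessels, had 2588 and 3997 in wild type, 6727 and 4019 in the dKO at day 25, and 1673 and 3724 at 2 months. The log2 difference between the dKO ages was -1.06 ± 0.49 (limma, adjusted p = 0.712), or -0.48 without dKO 2-month replicate 1, and its replicates differed widely in each group. Sema3f had 452 and 466, then 508 and 521, then 554 and 564, with no overlap between groups and a log2 difference of 0.28 ± 0.09 from wild type at 2 months (adjusted p = 0.338). This probe set may cross-hybridise by its suffix. The other 2 Sema3f probe sets were dim and had the same direction. Sema3c, bright at 2353 to 5830, showed more spread between the day 25 dKO replicates, 5830 and 2353, than between the groups. Sema3b ranged from 323 to 517, Sema3e from 61 to 118, and Sema3a and Sema3d did not exceed 55 on any array.

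Of the 6 class 5 and 6 ligands, each by its brightest probe set, only Sema6c reached an unadjusted p under 0.05, for 2 months against wild type. Sema5a, a ligand with thrombospondin repeats that binds Plxnb3, had 2730 and 3046 in wild type, 2617 and 2364 in the dKO at day 25, and 3171 and 2068 at 2 months, and the groups overlapped except at day 25. Its second probe set had 2219 and 3613, then 2020 and 1344, then 2766 and 1504, which is 1.72-fold lower in the dKO at day 25 with no overlap, and all 3 other probe sets were lower at 2 months than in wild type, with log2 differences from -0.55 to -0.47. Sema5b lay between 38 and 75. Sema6d, a transmembrane ligand of plexin-A1, had 1307 and 1333, then 1486 and 1353, then 1346 and 1251, a span of log2 differences from -0.13 to 0.10 over the 3 comparisons. Sema6c had 219 and 238, then 262 and 253, then 319 and 272, so its groups did not overlap, with a log2 difference of 0.37 ± 0.12 for 2 months against wild type (limma, adjusted p = 0.350), or 0.25 without dKO 2-month replicate 1. Sema6a and Sema6b stayed between 72 and 108.

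The partners of the system were examined as lists. Of 26 co-receptors and other binding partners, an unadjusted p under 0.05 was reached by 1 higher and 1 lower gene at day 25, 1 and 0 between the dKO ages, and 5 and 0 for 2 months against wild type, and 0 passed after adjustment. Over all genes the shares higher and lower were 4.89% and 3.44%, 3.73% and 2.91%, and 9.54% and 5.38% in the same order. Itga6, a laminin-binding integrin chain, had 3232 and 2961 in wild type, 4617 and 6135 in the dKO at day 25, and 6864 and 7709 at 2 months. Its groups did not overlap in any comparison, and the log2 difference of 2 months from wild type was 1.23 ± 0.17 (limma, adjusted p = 0.167). Tyrobp, the adaptor that joins TREM2 to plexin-A1 and is itself a leukocyte marker, had 159 and 304, then 801 and 428, then 1778 and 508. Robo1, a receptor for SLIT ligands, was lower in the dKO at day 25, with 1399 and 1289 against 1810 and 2141.

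Among 42 measured cytoplasmic effectors, an unadjusted p under 0.05 was reached by 1 higher and 2 lower genes at day 25, 1 and 5 between the dKO ages, and 7 and 4 for 2 months against wild type, with 0 passing after adjustment and the same shares over all genes as above (4.89% and 3.44%, 3.73% and 2.91%, 9.54% and 5.38%). The list's median log2 difference was 0.10, 0.07 and 0.08 in the 3 comparisons, against 0.03, 0.02 and 0.04 over all genes. Members of the collapsin response mediator family, which relay semaphorin signals to microtubules, differed in direction. Dpysl5 had 321 and 375 in wild type, 279 and 232 in the dKO at day 25, and 152 and 193 at 2 months, a log2 difference of -1.01 ± 0.18 from wild type at 2 months (limma, adjusted p = 0.215). Dpysl4 had 691 and 615, then 402 and 538, then 288 and 122, also with no overlap, while Crmp1 was higher in the dKO at day 25, with 55 and 64 against 39 and 41. Gipc1, which binds the tail of neuropilin-1, had 268 and 334 in wild type and 206 and 232 in the dKO at day 25. Rnd2, a small GTPase, had 200 and 324, then 394 and 464, then 894 and 550, with each group above the one before and no overlap. Sh3bp1, a plexin-associated GTPase-activating protein, had 259 and 261 at 2 months against 160 and 193 in wild type.

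Of 7 other ligands of neuropilins, VEGF family members among them, 1 was higher at day 25 and 1 between the dKO ages at an unadjusted p under 0.05, and 0 for 2 months against wild type, where 4.89%, 3.73% and 9.54% of all genes were higher. Vegfa had 528 and 788 in wild type, 671 and 569 in the dKO at day 25, and 675 and 802 at 2 months, and its groups overlapped between the genotypes. Vegfd, a lymphatic growth factor, had 120 and 107, then 184 and 139, then 130 and 148. Pgf, the placental growth factor, had 59 and 63 in the dKO at day 25 and 91 and 73 at 2 months. The largest log2 difference of any of these 7 ligands in the 3 comparisons was 0.80, that of Tgfb1 between the dKO ages.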

How the data were processed

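Total RNA was measured on 1 Affymetrix array per sample. The authors deposited linear intensity values per probe set, rounded to whole numbers. The submitters' processing notes name affy and RMA; versions and genome build are not given in the sources used here. RMA equalises the arrays, which hides any change shared by most genes.

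Of 45101 rows, 64 controls were left out. Genes were named from the platform annotation, with 34945 probe sets having 1 symbol, 932 several and 9160 none; each gene took its brightest probe set by mean intensity over 6 arrays. Intensities of different probe sets are not comparable levels. A single limma 3.58.1 fit (R 4.3.3) of log2(value + 1) over 45037 probe sets had 1 mean for each group and left 3 residual degrees of freedom; p-values are 2-sided with Benjamini-Hochberg adjustment at 0.05. Differences of dim genes are understated on this scale. On data simulated for the day 25 comparison with 45037 probe sets, 14% of 2-fold and 82% of 4-fold differences passed, with 13 false calls. The simulated noise was normal, with the spread estimated by the limma fit, so these shares need not hold for the real arrays. There Foxo1, 6.18-fold lower in the dKO at day 25, had an adjusted p of 0.508 (limma). The number of arrays limits the precision, and no label ties replicates to separate animals, so p-values reflect the spread of these samples, which may be technical.

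Members with an unadjusted p under 0.05, with groups apart by 2-fold or more without overlap, or brightest in their class are given on every array, with up to 4 of the smallest p per partner list, not all printed. The rule for members uses symbols alone, but this gene family and the lists were chosen with earlier results of these data known. Alternatives covered normalization, filters, probe set choice, prior, weights, pseudocount 16, blocks and leaving out arrays. The replicate numbers did not pair the arrays.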

Additional observations from a re-analysis of the deposited data

How the results depend on the processing

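No member passed adjustment in any comparison under any of the 17 alternatives (limma), and all 22 named differences kept their direction in all 374 values refitted. The 22 were chosen from these same arrays, and their groups did not overlap. Leaving out a single array could therefore not reverse them, so that part of the result was fixed in advance. The counts of members at an unadjusted p under 0.05 varied. At day 25 the 4 became 2 with each gene's probe sets averaged, 7 with array weights, and 1 to 6 when single arrays were left out. Between the dKO ages the 5 became 3 with only the 4 arrays compared and 2 to 12 when single arrays were left out, and the median log2 difference ran from -0.063 to 0.31. For 2 months against wild type the 10 became 4 to 13, and the median ran from 0.15 to 0.33. The array that remains alone in a group is then assumed to vary as the rest do. The replicate numbers are shared by the groups, but deviations of same-numbered arrays correlated at -0.159, 0.0569 and -0.208, so a pairing was not taken up. With the replicate block, 3, 4 and 9 members had an unadjusted p under 0.05 in the 3 comparisons, and with the wild-type numbers crossed, an alternative chosen after seeing the data, 6, 7 and 12 did. Depth is unknown for arrays, and the 3 members at or below the array median throughout, Sema3a, Sema3d and Plxna4os1, are dim, with background not given.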
